A study of Mus musculus with 12 samples.

Results

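The 1738 regions described here were called as open chromatin in every one of 12 ATAC-seq libraries and lay within 1 kb of an end of a protein-coding gene. Peaks of all libraries on chromosomes 1 to 19 that overlapped by 1 bp or more were merged into 43905 regions. Of these, 2407 held a peak in all 12 libraries, and 1738 of the 2407 were at gene ends while 669 were farther away (distal). ATAC-seq marks accessible DNA by the insertion of sequencing adapters by a transposase. The samples were CD45.2+ cells from C57BL/6 bone marrow, at 150000 FACS-sorted cells each; whether Control cells passed the same gate as the fusion groups was not given in the sources used here. Control cells had the genotype CD45.2(+) with no fusion named. On the same CD45.2(+) background, the group named BN1 carried the fusion BRD9-NUTM1, the group MA9 carried MLL-AF9 and the group ME carried MLL-ENL, and the study's design text calls them murine leukaemic cells. Each group had 3 libraries. Age, sex, the vector or promoter of each fusion, and whether replicates were separate animals were not given in the sources used here, so p-values measure only the spread between these libraries. The regions were chosen by the peak calls themselves and by distance to a gene, so presence of a peak is a description here and supports no test.

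Chromatin at the start of a gene is opened by sequence-specific activators and by the transcription machinery itself. Many such promoters lie in stretches rich in CpG dinucleotides and stay accessible in most cell types, in contrast to enhancers, which differ between cell types. BRD9 reads acetylated histones within SWI/SNF, a complex that moves nucleosomes, and NUTM1 binds the acetyltransferase p300. MLL (KMT2A) is a histone methyltransferase of promoters, and AF9 and ENL belong to elongation complexes.

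The 300 bases from 250 before to 50 after the RefSeq start site (GRCm38.p6) are shown for 8 members on which the results below turn. Sp1 and Cic were among the 10 members with the highest signal rank over all libraries. Dusp1, Btg2 and Fos are immediate early genes, induced within minutes of a stimulus, and Stat6 had the largest fall from Control in each fusion group. Cebpa and Cebpb, transcription factors of myeloid cells, were lowest in Control. Capitals mark every match to 1 of 15 short motifs on either strand, and matches that overlap or adjoin run together. The sequences lie at chr15:102406066-102406365 (Sp1, plus strand), chr7:25267449-25267748 (Cic, plus), chr17:26508423-26508722 (Dusp1, minus), chr1:134079106-134079405 (Btg2, minus), chr12:85473640-85473939 (Fos, plus), chr10:127642736-127643035 (Stat6, plus), chr7:35119043-35119342 (Cebpa, plus) and chr2:167688665-167688964 (Cebpb, plus).
Sp1: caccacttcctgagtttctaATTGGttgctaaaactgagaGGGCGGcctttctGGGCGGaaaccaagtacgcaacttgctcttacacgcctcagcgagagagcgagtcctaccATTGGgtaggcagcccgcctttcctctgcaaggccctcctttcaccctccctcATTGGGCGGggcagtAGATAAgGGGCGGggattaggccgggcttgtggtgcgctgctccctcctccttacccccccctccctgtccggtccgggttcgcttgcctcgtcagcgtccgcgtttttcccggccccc
Cic: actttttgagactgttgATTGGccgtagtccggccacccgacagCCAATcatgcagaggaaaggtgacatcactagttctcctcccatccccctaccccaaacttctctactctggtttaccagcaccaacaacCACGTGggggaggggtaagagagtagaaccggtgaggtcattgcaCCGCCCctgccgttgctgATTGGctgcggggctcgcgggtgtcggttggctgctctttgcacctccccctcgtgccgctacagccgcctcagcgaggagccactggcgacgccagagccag
Dusp1: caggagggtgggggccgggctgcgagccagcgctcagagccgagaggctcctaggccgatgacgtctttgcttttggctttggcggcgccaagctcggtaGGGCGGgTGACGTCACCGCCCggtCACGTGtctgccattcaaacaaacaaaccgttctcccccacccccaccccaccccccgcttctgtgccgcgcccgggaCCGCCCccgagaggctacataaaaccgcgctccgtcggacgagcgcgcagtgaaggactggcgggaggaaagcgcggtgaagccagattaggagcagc
Btg2: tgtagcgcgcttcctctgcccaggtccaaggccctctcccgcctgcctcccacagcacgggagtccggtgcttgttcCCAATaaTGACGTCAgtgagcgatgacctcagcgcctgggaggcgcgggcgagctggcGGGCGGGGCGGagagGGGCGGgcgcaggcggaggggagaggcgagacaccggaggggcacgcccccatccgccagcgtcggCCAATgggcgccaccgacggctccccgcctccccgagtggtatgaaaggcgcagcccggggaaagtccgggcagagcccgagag
Fos: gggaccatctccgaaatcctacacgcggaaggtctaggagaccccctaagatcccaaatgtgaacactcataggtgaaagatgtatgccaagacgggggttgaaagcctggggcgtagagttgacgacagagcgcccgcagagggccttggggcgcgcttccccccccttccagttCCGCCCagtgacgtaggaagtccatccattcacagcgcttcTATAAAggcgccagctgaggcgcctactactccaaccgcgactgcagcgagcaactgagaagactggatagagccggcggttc
Stat6: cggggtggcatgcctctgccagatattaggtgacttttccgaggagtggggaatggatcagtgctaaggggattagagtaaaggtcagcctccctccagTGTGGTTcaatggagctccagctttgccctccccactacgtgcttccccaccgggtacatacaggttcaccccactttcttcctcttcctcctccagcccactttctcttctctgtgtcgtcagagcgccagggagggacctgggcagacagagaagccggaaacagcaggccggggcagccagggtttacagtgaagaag
Cebpa: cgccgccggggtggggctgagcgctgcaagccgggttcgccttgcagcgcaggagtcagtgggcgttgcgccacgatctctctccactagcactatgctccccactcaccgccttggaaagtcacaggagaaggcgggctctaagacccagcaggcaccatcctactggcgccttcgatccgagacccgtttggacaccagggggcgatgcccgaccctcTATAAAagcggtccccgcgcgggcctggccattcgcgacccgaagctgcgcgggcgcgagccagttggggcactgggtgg
Cebpb: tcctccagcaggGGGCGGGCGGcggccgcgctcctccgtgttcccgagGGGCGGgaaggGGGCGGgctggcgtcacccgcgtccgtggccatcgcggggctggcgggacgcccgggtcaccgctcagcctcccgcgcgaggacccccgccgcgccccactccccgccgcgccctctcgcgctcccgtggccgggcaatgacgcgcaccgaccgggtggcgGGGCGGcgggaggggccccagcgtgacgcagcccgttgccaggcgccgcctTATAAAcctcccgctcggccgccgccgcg

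The promoters of these regions were rich in CpG and in GC boxes. Of 20078 start sites in the RefSeq promoter table, 1928, of 1651 genes, lay inside a member. Start sites on chromosome 18, which has 46 members, were not analysed here. Median GC content was 64% at these 1928 sites and 57% at all sites. The ratio of observed to expected CpG had a median of 0.840 inside members, 0.798 at 5403 sites in gene-end regions that were called in all Control libraries but not in all 12, and 0.282 at 10798 sites outside every region. A ratio of 0.6 or more was found at 88.7% of sites inside members and at 48.9% of all sites. Of the sequences above, Stat6 held 8 CpG dinucleotides, Cebpa 29 and Cebpb 50.

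Matches to the motifs searched are descriptions of letters, not of bound factors. The GC box GGGCGG, bound by SP and KLF proteins, was present at 78.8% of sites inside members, against 47.0% of all sites and 66.3% of the sites in regions missed in at least 1 fusion library. The NFY box CCAAT stood at 51.6%, 38.1% and 37.8% of the same sets. The ETS letters CCGGAAG were at 21.7%, 11.9% and 24.2%, so their share in members was no higher than in the regions missed in at least 1 fusion library. Further shares inside members and at all sites were 11.9% and 7.89% for the E-box CACGTG, 5.50% and 2.38% for NRF1 (GCGCATGCG), and 4.67% and 2.30% for the CRE TGACGTCA. BANP (CTCGCGAG) had 3.73% and 1.21%, YY1 (AAGATGGCG) 3.94% and 1.83%, ZNF143 (ACTACAATT) 1.14% and 0.533%, and the CTCF part AGGGGGCGC 2.75% and 1.77%. The TATA box TATAAA was rarer in members than at all sites, 4.77% against 12.7%, although Fos, Cebpa and Cebpb each held one. The blood-cell motif of RUNX proteins (TGTGGTT) stood at 2.80% and 4.77%, AGATAA of the erythroid zinc finger regulators at 3.63% and 9.57%, and TGACTCA of AP-1 at 2.54% and 4.70%. PU.1 (GAGGAAGT), the letters of a myeloid and B cell regulator, was at 3.58% of sites in members and 3.18% of all sites. In the regions missed in at least 1 fusion library, the E-box had 11.3%, NRF1 4.57%, the CRE 3.63%, BANP 2.09%, YY1 4.05% and ZNF143 0.907%. There the CTCF part had 2.26%, TATA 5.96%, RUNX 4.02%, AGATAA 5.83%, AP-1 2.67% and PU.1 3.59%. For each of these motifs members lay nearer to that set than to all sites.

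The libraries differed in how many peaks they held, and 1 library stood apart. Peaks numbered 25541 to 28023 in Control, 31968 to 33588 in MA9, 8546 to 9663 in ME and 3011 to 4258 in BN1. The same 1738 members therefore made up 18.6 to 19.5% of the gene-end regions of a Control library, 17.4 to 18.0% in MA9, 32.5 to 35.2% in ME, and 67.1%, 94.0% and 81.4% in BN1 replicates 1, 2 and 3. BN1 libraries, with the fewest peaks, decided membership: of 349 gene-end regions called in 11 libraries, 276 were missed only by BN1 replicate 2, 38 only by BN1 replicate 1 and 32 only by BN1 replicate 3. In 1725 members the lowest deposited signal was in a BN1 library, and in 293 it was under 250, close to the smallest value in any list (200). BN1 replicate 1 resembled ME more than its own group in the order of signals, as described below. Call counts and the similarity of signal order are given with and without it. Rank differences of single regions, counts of gene lists and motif shares are given with it only. Read numbers are not in the peak lists, so depth is unknown and its part in any difference between groups was not tested.

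**Figure D1:**
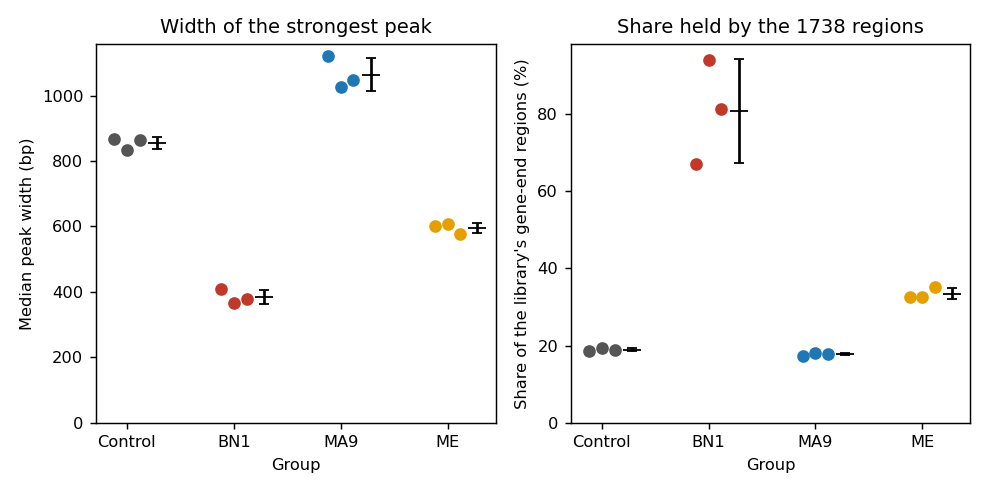
Left, median width in bp of the strongest peak in each of the 1738 regions; right, percent of a library's gene-end regions that these regions make up. Each point is a library and the black mark is the group mean ± SD (n = 3); BN1 has the narrowest peaks (367 to 408 bp) and the largest share (67.1 to 94.0%).

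Most members lay on gene starts. A gene end fell inside 1629 of the 1738 (93.7%), against 76.1% of 6967 gene-end regions called in all Control libraries but not in all 12. Of all 1738 members, 1459 (83.9%) were near a known start of a gene, and 23 (1.32%) were near other ends alone. The comparison set had 74.8% and 6.33%. For 256 members (14.7%) and for 18.9% of the comparison set no strand was given, and these regions count in the base of both shares. Starts on both strands, as at divergent gene pairs, were found in 268 members (15.4% against 8.11%), and 454 (26.1%) had ends of 2 or more genes. Members were wider than the comparison set, with a median of 1279 bp against 712 bp, and the distal regions called in all 12 libraries had 1032 bp. The share of protein-coding genes with such a region was 10.5% over the autosomes (2166 of 20665), highest on chromosome 19 (15.5%) and lowest on chromosome 2 (7.41%). Near the limit of the rule, the members farthest from a gene end were at Steap4 (995 bp), Lrch4 (981 bp), Esyt2 (972 bp), Plcd3 and Zfp36 (970 bp each). The nearest regions left out were at Dclre1b (1002 bp), Aktip (1004 bp), Lig4 (1006 bp), Btbd19 (1025 bp) and Sgo1 (1033 bp).

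Among the gene lists, chaperones and immediate early genes had the largest shares with an always-called end, and most lists of blood lineage markers had none. These counts follow from the rule and are a description. Of 20 chaperone genes, 15 had a member (75%), among them Hspa8, Hsp90aa1, Hspe1 and 5 subunits of the TCP1 ring, which folds actin and tubulin. Immediate early genes followed with 14 of 26 (53.8%): Atf3, Btg1, Btg2, Dusp1, Egr1, Fos, Fosl2, Ier2, Jun, Junb, Jund, Klf2, Klf6 and Zfp36. Myc had a gene-end peak in 3 Control, 3 MA9 and 2 ME libraries and in 0 BN1 libraries. Splicing factors had 23 of 67, translation initiation factors 15 of 49, cytosolic ribosomal proteins 19 of 79, oxidative phosphorylation subunits 10 of 74, proteasome subunits 5 of 38 and aminoacyl-tRNA synthetases 3 of 35. Olfactory receptors had 0 of 1100 and genes silent in blood 0 of 22.

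**Figure D2:**
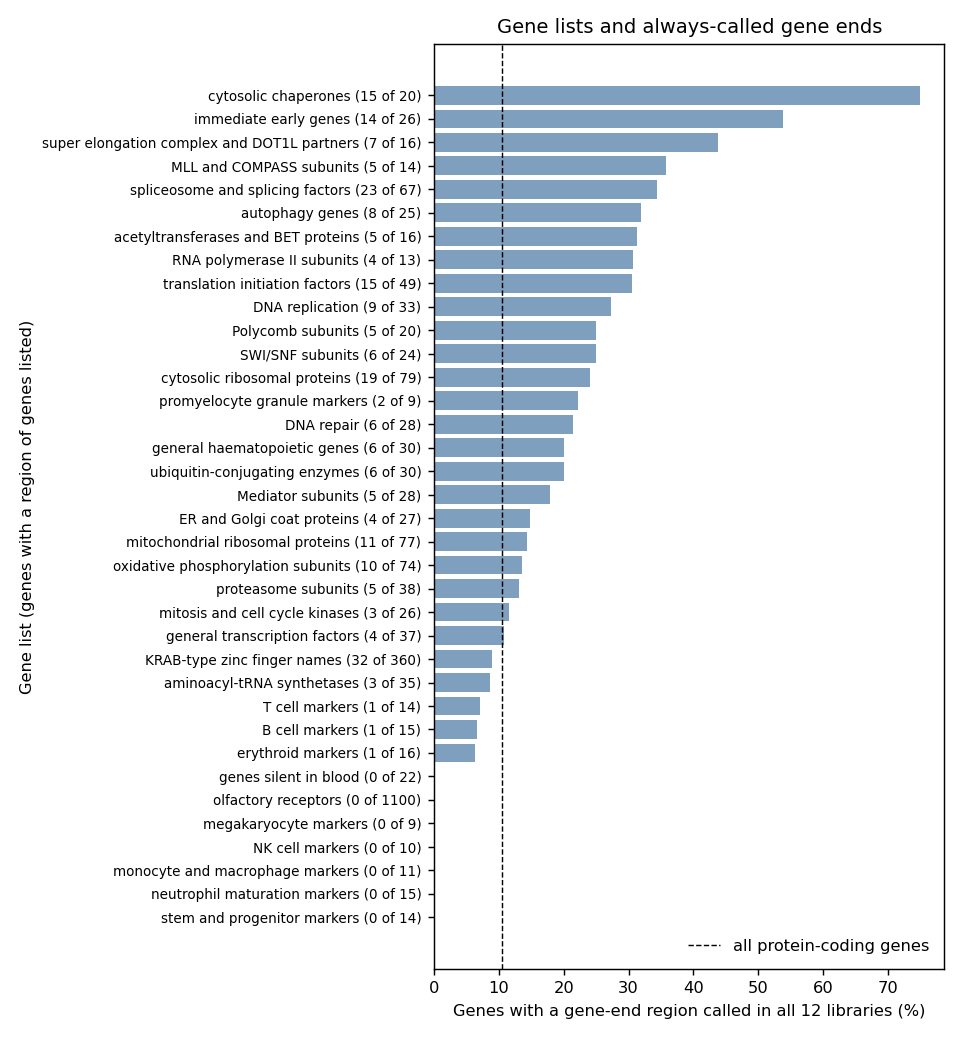
Percent of the genes of each list with a gene-end region called in all 12 libraries, with the numbers beside the list's name; the dashed line is the share of all protein-coding genes (10.5%). Chaperones (75%) and immediate early genes (53.8%) lie highest and 7 lists, among them stem, neutrophil, monocyte, NK and megakaryocyte markers, are at 0.

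Among the partners of the fusion proteins, the list of the super elongation complex and DOT1L partners had 7 of 16 genes. These were Aff1, Ccnt1, Ccnt2, Ell, Ell2, Hexim1 and Larp7, of which Hexim1 and Larp7 hold the elongation factor P-TEFb inactive. The MLL and COMPASS subunits had 5 of 14 (Cxxc1, Kmt2a, Kmt2b, Kmt2d, Men1). SWI/SNF subunits had 6 of 24 (Actl6a, Arid1a, Bcl7b, Bicra, Dpf2, Smarca4), acetyltransferases and BET proteins 5 of 16 (Brd2, Brpf1, Ep300, Kat6b, Kat7) and Polycomb subunits 5 of 20. The partner genes Brd9, Mllt1 and Mllt3 had no member: Brd9 had a gene-end peak in every Control, MA9 and ME library and in 0 BN1 libraries. Of the lineage markers, 0 of 14 stem and progenitor, 0 of 15 neutrophil, 0 of 11 monocyte, 0 of 10 NK and 0 of 9 megakaryocyte genes had one. Promyelocyte granule markers went the other way, with 2 of 9 genes (22.2%), beside 10.5% of all protein-coding genes. Single members stood at Cd79a for B cells, Cd3d for T cells and Nfe2 for erythroid cells, and the Cd79a region also covers an end of Arhgef1. General haematopoietic genes had 6 of 30: Cebpa, Cebpb, Laptm5, Lyl1, Spi1 and Tyrobp. Ptprc, which encodes the CD45 antigen of the sort, had a gene-end peak in 3 of 3 Control and 3 of 3 MA9 libraries and in 0 BN1 and 0 ME libraries, so the label could not be checked at this gene in those groups.

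Peaks were broadest in MA9 and narrowest in BN1. Median width of the strongest peak per member was 868.5, 834 and 863.5 bp in the Control libraries (855 ± 18.6 bp, mean ± SD, n = 3) and 1120, 1026 and 1047.5 bp in MA9 (1065 ± 49.3 bp). It was 601, 606.5 and 576.5 bp in ME (595 ± 16 bp) and 408, 367 and 379 bp in BN1 (385 ± 21.1 bp). No group's libraries overlapped another's (exact permutation p = 6.49e-05, the smallest that the 15400 assignments of libraries to groups can give). The 4 groups had the same order by width as by number of peaks, and whether calling at different depths sets it was not tested. A member held several peaks in 16.2 ± 0.176% of cases in Control, 15.3 ± 0.522% in ME, 11.7 ± 2.60% in MA9 and 10.4 ± 2.08% in BN1 (mean ± SD, n = 3; exact permutation p = 0.0207). The MA9 libraries spread from 8.75 to 13.8% and BN1 from 9.09 to 12.8%, so these groups overlapped.

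The extra width in MA9 lay downstream of the start site. In 1021 members with exactly 1 RefSeq start inside, the strongest peak of a Control library began a median of 538 ± 14.1 bp before the start (printed as -538 bp) and that of an MA9 library at -534 ± 22.1 bp (SD, n = 3). The downstream edge, however, lay at 224, 197 and 196 bp in Control and at 515, 473 and 479 bp in MA9. ME peaks ran from -353 ± 2.52 bp to 177 ± 12.7 bp, and BN1 peaks from -298 ± 9.07 bp to 75.7 ± 7.64 bp. BN1 replicate 1 reached 84 bp and the other BN1 libraries 69 and 74 bp. A peak reached 300 bp or more downstream in 77.5 ± 3.95% of these members in MA9, 37.8 ± 2.04% in Control, 33.3 ± 1.73% in ME and 10.4 ± 2.21% in BN1. Groups differed in the downstream edge (exact permutation p = 6.49e-05, the smallest possible) and in the upstream edge (p = 0.000584 by the same exact permutation test). This window was chosen after the peak widths were seen. With the outermost edges of all peaks in a member, an alternative also chosen after the data were seen, the downstream median was 505 bp for MA9 against 271 bp for Control. ME had 203 bp and BN1 78.3 bp on that measure.

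**Figure D3:**
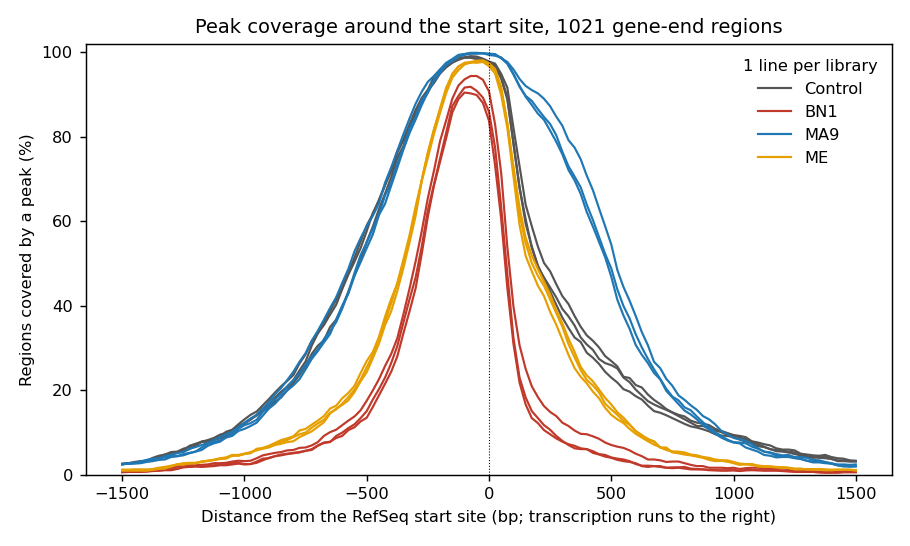
Percent of 1021 gene-end regions covered by a peak at each distance in bp from the RefSeq start site, with 1 line per library coloured by group. Control and MA9 lines run together upstream, while downstream the MA9 lines stay highest and the BN1 lines fall first (median downstream edges 515, 473 and 479 bp against 84, 69 and 74 bp).

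Summits barely moved. The median summit lay -104 ± 1 bp from the start in Control, -102 ± 2.08 bp in BN1, -96.7 ± 1.15 bp in MA9 and -91.7 ± 2.31 bp in ME (SD, n = 3; exact permutation p = 0.000195). It was upstream of the start in 87.6 ± 0.259% of the 1021 members in Control and in 84.4 ± 0.688% in ME. Over all 1738 members, the median distance between summits of a pair of libraries was 4.17 bp within groups and 12.8 bp between groups (exact permutation p = 6.49e-05, the smallest possible). Control summits were 17.2 bp from those of MA9, 19.6 bp from BN1 and 21 bp from ME on average, whereas MA9 and ME were 3.89 bp apart, BN1 and MA9 7.44 bp, and BN1 and ME 7.67 bp. BN1 libraries differed among themselves by 7.67 bp, as much as from ME.

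The order of the members by signal was kept within Control, MA9 and ME and less so within BN1, and on average it was less alike between groups. Spearman's rho of the signal over 1738 members, a description over regions that share a library, was 0.973 to 0.975 among Control libraries, 0.963 to 0.970 in MA9 and 0.976 to 0.977 in ME. Control against the fusion groups gave 0.537 to 0.633. MA9 and ME resembled each other more, with 0.820 to 0.855. Mean rho was 0.944 within groups and 0.674 between groups (exact permutation p = 6.49e-05, the smallest possible). Within BN1 rho was 0.933 between replicates 2 and 3 but 0.806 and 0.838 between replicate 1 and these. BN1 replicate 1 had 0.848, 0.849 and 0.852 with the ME libraries. All BN1 libraries together had 0.716 to 0.852 with ME and 0.596 to 0.777 with MA9. Without BN1 replicate 1 the within minus between difference was 0.301, against 0.270 with it.

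**Figure D4:**
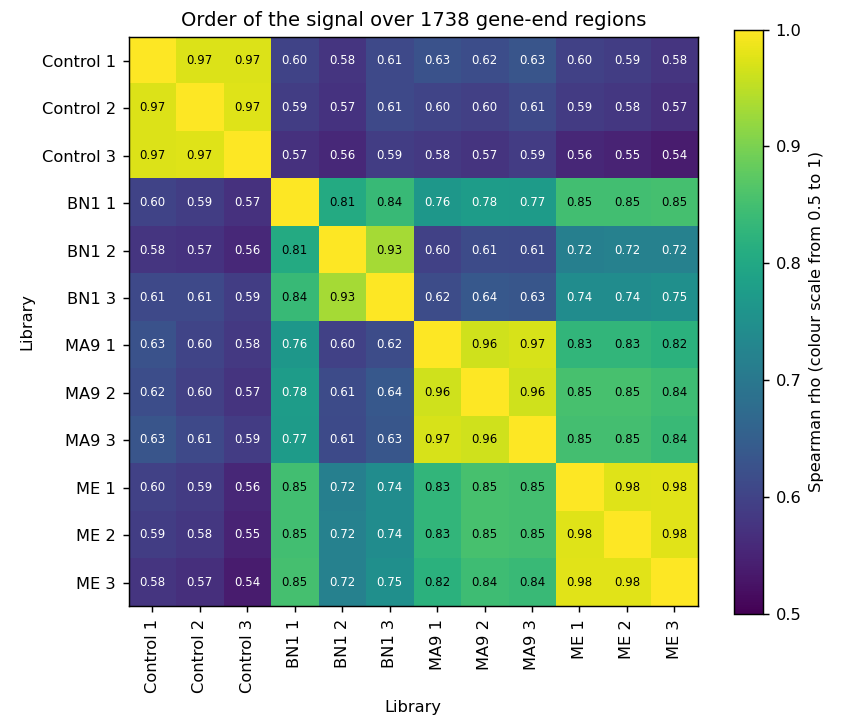
Spearman rho of the signal over 1738 gene-end regions for every pair of libraries (both axes, 12 libraries in 4 groups; colour runs from 0.5 to 1). Control forms a block of its own, MA9 and ME libraries lie at 0.820 to 0.855 with each other, and BN1 replicate 1 lies nearer to ME than to BN1 replicates 2 and 3.

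To compare single regions, the signal of the strongest peak was turned into a percentile rank (0 to 100) among the 2407 regions called in all libraries, since deposited signals are on no common scale. A rank difference says that a region stood higher or lower among the always-open regions of its own library, not that it was more or less open. The deposited signal was read as an area, so peak width enters it. Limma was fitted over all 2407 regions with Benjamini-Hochberg adjustment and a threshold of 0.05. All groups shared the estimate of a region's spread, so an SE or p-value does not measure the spread of the compared libraries alone. Mean rho of the signal order within BN1 was 0.859, lower than in Control (0.974), MA9 (0.966) and ME (0.977). The spread among BN1 libraries may therefore be understated in their SEs and p-values. Of the regions called below, 58.4% (BN1), 60.2% (MA9) and 57.8% (ME) kept the sign of their difference from Control when signal was divided by width, and 27.0%, 26.5% and 23.9% were also called in that direction. By contrast, 14.3%, 12.9% and 14.8% were called in the opposite direction. Regions called in the same direction under all 6 scalings tried numbered 225 for BN1, 192 for MA9 and 203 for ME against Control. The scalings are not independent checks. Summed signal, quantile-normalised log2 signal and log2 signal minus the library median are close to the main rank and kept the sign of at least 95.9% of calls. Passing all 6 therefore rests mainly on signal per base and −log10 p. The genes described first in each comparison are the ones named by size that passed under all 6.

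In BN1 against Control, the largest rises and falls spanned most of the scale. Called were 1137 of 1738 members (65.4%), 576 higher and 561 lower, beside 66.3% of all 2407 regions (36.3% higher and 30.1% lower). The 2407 include the members. Of the 669 distal regions 68.8% were called, a share near that of members. The directions were 44.4% higher and 24.4% lower in distal regions, against 33.1% and 32.3% in members, on this rank scale alone. The region of F10 and F7, which encode coagulation factors, stood at 2.74, 3.82 and 3.66 in Control and at 71.0, 87.2 and 81.8 in BN1 (higher by 76.6 points, SE 3.82, adjusted p = 3.82e-08). Mt1, a metallothionein that binds zinc and copper, went from 1.7, 1.2 and 1.5 in Control to 67.3, 77.5 and 78.1 in BN1 (higher by 72.9, SE 4.40). Cebpa stood at 4.61, 5.07 and 4.32 in Control and at 68.3, 70.8 and 78.1 in BN1 (higher by 67.7, SE 4.30, adjusted p = 2.24e-07). No BN1 value of these 3 regions came near a Control value. Aldh3b1, an aldehyde dehydrogenase, was higher by 66.6, Fbxo30 by 60.8, Avpi1 by 59.2, Tmem250-ps by 58.9 and Bhlhe40, a helix-loop-helix repressor, by 58.6. The region of Ppox, an enzyme of haem synthesis, and Usp21 fell by 81.9 points (SE 2.73, adjusted p = 3.88e-09), from 89.1, 90.9 and 91.1 to 12.3, 4.03 and 9.10. H1f2, a linker histone, fell by 76.1, from 99.4, 99.1 and 99.1 to 31.5, 16.8 and 21.1, and Ubald1 fell by 74.2.

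Several of the largest differences in BN1 followed peak width. The Stat6 region (chr10:127641846-127644289), at a mediator of interleukin-4 signals, fell by 93.9 points (SE 5.65, adjusted p = 1.45e-07), from 95.3, 95.3 and 96.6 to 1.58, 1.99 and 1.79. Its peak was 2306, 2312 and 2443 bp wide in Control and 231, 220 and 218 bp in BN1, and per base of width the difference was 2.26 with the sign turned. Dusp1, a phosphatase that switches off MAP kinases, fell by 78.7 from 98.1, 98.2 and 98.3 to 22.8, 24.7 and 11, but per base the difference was 14.6 and by −log10 p 3.52, neither called. Myl6, a myosin light chain, fell by 79.3, and per base it was 25 in the other direction and not called. Gstp3, a glutathione transferase, had the largest rise of all members, 96.5 points (from 2.20, 1.91 and 1.33 to 98.4, 98.7 and 97.9). That peak widened from 362 to 401 bp in Control to 2113 to 2337 bp in BN1, and per base it was no longer called. The calls at Mospd3, Gabarap and Bcas3 were also lost per base. By −log10 p of the strongest peak the members divided into 461 higher and 679 lower, in place of 576 and 561, and by log2 signal minus the library median into 721 and 481. Without BN1 replicate 1, 1307 of 1776 members were called.

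**Figure D5:**
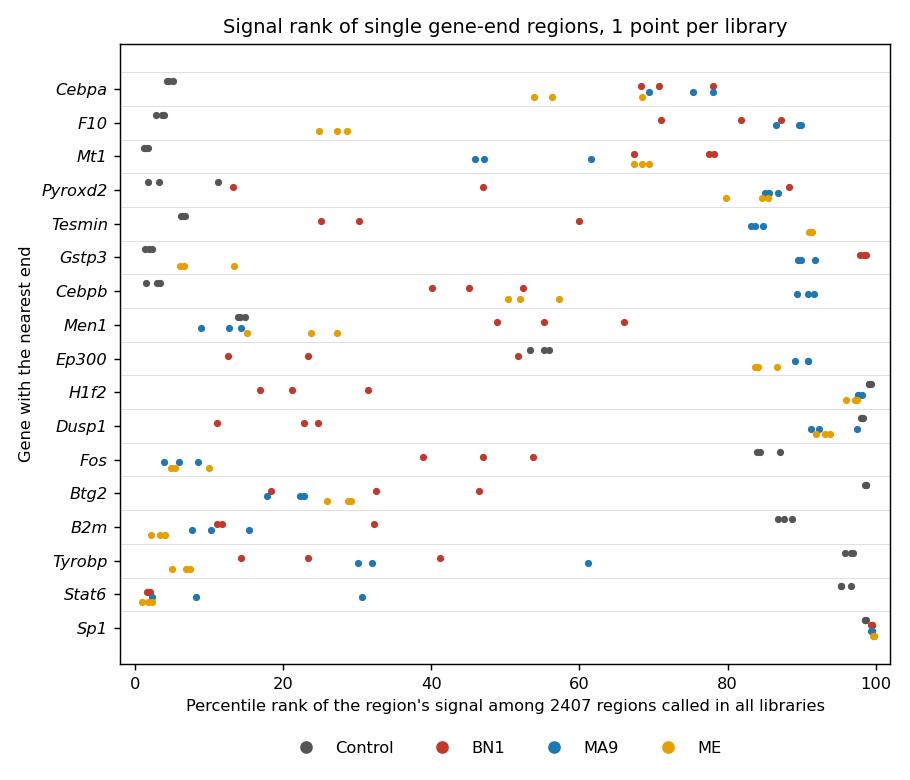
Percentile rank of the signal of 17 gene-end regions among 2407 regions called in all libraries, with 1 point per library coloured by group. Cebpa, F10 and Mt1 are lowest in Control, Stat6, B2m and Btg2 highest in Control, H1f2 and Dusp1 low in BN1 alone, and Sp1 lies above 98 in every library.

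In MA9 against Control, regions at F10 and Nr1d2 rose most among those called at every scale, and Stat6, Btg2 and B2m fell most. Called were 1085 members (62.4%), 511 higher and 574 lower, beside 60% of all 2407 regions (27.9% higher and 32.2% lower). Of the distal regions alone, 53.8% were called (23.9% higher and 29.9% lower). F10 was higher by 85.3 points (SE 3.82), at 86.5, 89.9 and 89.7. Nr1d2, a nuclear receptor of the circadian clock, stood at 12.9, 12 and 9.89 in Control and at 94.8, 95.1 and 95.6 in MA9 (higher by 83.5, SE 14.3, adjusted p = 0.000457). Pyroxd2 was higher by 80.5 and Tesmin, a metallothionein-like protein of testis, by 77.5. Stat6 fell by 82.0 points, and its MA9 values were 30.6, 8.18 and 2.29, all below Control. Btg2, which restrains proliferation, fell by 77.7 (SE 5.56, adjusted p = 8.12e-07), from 98.6, 98.7 and 98.7 to 17.7, 22.9 and 22.2. B2m, the light chain of MHC class I, fell by 76.6 (SE 4.91, adjusted p = 3.80e-07), from 87.7, 88.7 and 86.9 to 15.3, 10.3 and 7.69.

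Cebpb showed the second largest rise in MA9, 88.1 points (SE 3.43, adjusted p = 1.77e-08), from 3.32, 2.99 and 1.45 to 90.9, 91.7 and 89.4. Per base the difference was 37.8 and still called, while by −log10 p it was 12.7 with adjusted p = 0.223. Fos fell by 79.0, from 87.1, 83.9 and 84.3 to 8.52, 5.94 and 3.95, and per base it was -4.82 and not called. The falls at Txnip, Serinc3, Rgs2 and the Arhgef1 region and the rises at Sumo3, Ube2g1 and Insig1 turned sign per base. For Txnip, a regulator of glucose uptake, the turned difference was itself called (80.3). The calls at Gstp3, Rxrb, Traf3ip3 and Dusp6 were lost per base.

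In ME against Control, the falls called at every scale were led by Tyrobp and B2m, genes of immune signalling and antigen display, and the rises by Tesmin and Pyroxd2. Called were 1108 members (63.8%), 618 higher and 490 lower, beside 63.6% of all regions (34.7% higher and 28.8% lower). Of the distal regions alone, 63.1% were called (32.6% higher and 30.5% lower). Division by width gave 304 higher and 370 lower, −log10 p gave 532 and 652, and log2 signal minus the library median 708 and 445. Tyrobp, an adaptor of activating receptors in myeloid and NK cells, fell by 90.1 points (SE 8.16, adjusted p = 3.44e-06), from 95.9, 96.6 and 96.9 to 7.35, 5.03 and 6.86. B2m fell by 84.6 (SE 4.91), to 3.99, 2.12 and 3.28. Fos fell by 78.4 (SE 3.63, adjusted p = 3.48e-08), to 4.86, 9.93 and 5.36. The Nfkbil1 region fell by 81.0, Ppox by 79.8 and Sesn3, a stress-induced sestrin, by 77.3. Tesmin rose by 84.8 points (SE 7.03), from 6.19, 6.77 and 6.36 to 91.0, 91.2 and 91.4. Pyroxd2 rose by 77.9, Gbe1, the glycogen branching enzyme, by 68.6, Mt1 by 66.9 and Ppia, which encodes cyclophilin A, by 66.6. Stat6 fell by 94.1 and Nr1d2 rose by 81.4, but neither was called per base, nor were Hmgn2, Tor4a, Serinc3 and Mospd3, and the rises at Sumo3 and Yy1 turned sign.

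The 3 comparisons above share the Control libraries, so a gene that recurs in them is not separate evidence. BN1 against the mean of MA9 and ME does not use Control. Called were 991 members (57.0%), 478 higher and 513 lower, beside 59.4% of all regions (33.1% higher and 26.3% lower). Distal regions called in all 12 libraries had 318 of 669 higher (47.5%) and 121 lower (18.1%), whereas 27.5% and 29.5% of members were. Both sets required a peak in every BN1 library, and the distal split was taken on the main rank scale alone. This contrast is therefore a description, and the part of that requirement in it was not tested. By −log10 p the members had 280 higher and 487 lower, and by log2 signal minus the library median 607 and 428, so the balance of the directions depends on the scale. Members called in the same direction under all 6 scalings numbered 41 higher and 105 lower. Without BN1 replicate 1, 1203 of 1776 members were called.

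H1f2 separated BN1 from every other library. It stood at 97.7, 98.2 and 97.6 in MA9 and at 97.5, 97.3 and 96.0 in ME, and BN1 was lower by 74.3 points (difference -74.3, SE 2.48, adjusted p = 8.01e-09). The shared start region of Ppat and Paics, enzymes of purine synthesis, fell by 67.0, with BN1 values of 28.6, 5.69 and 0.291 and MA9 and ME values of 77.4 to 79.9. Ep300, which encodes the acetyltransferase p300, fell by 58.4 (SE 6.46, adjusted p = 2.85e-05). Its BN1 values were 51.7, 12.5 and 23.3, with 90.9, 90.9 and 89.1 in MA9 and 86.6, 83.7 and 84.1 in ME. Against Control, at 53.3, 55.9 and 55.2, Ep300 was higher in MA9 by 35.5 and in ME by 30.0, but per base the signs turned to -36.5 and -58.0. Tuba1b, an alpha tubulin, fell by 59.4 and Ogdh, a subunit of a citric acid cycle complex, by 54.8. BN1 replicate 1 lay closest to the other groups at Ep300 and Ogdh (63.2, against 7.52 and 9.51).

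Regions higher in BN1 than in the mean of both MLL fusions, at every scale, included Gm41099 and Nfkbia. Gm41099, a predicted gene, stood at 93.6, 89.6 and 82.2 in BN1, 34.9, 58.9 and 61 in ME, and 0.0831, 0.0831 and 0.125 in MA9 (higher by 62.6, SE 5.63). Aldh3b1 was higher by 49.4. Nfkbia, the inhibitor that holds NF-κB in the cytoplasm, was higher by 45.2 (SE 4.79, adjusted p = 2.17e-05), at 40.1, 56 and 66.8 against 3.49 to 18.1. A further region at Nfkbia differed by 8.62 and was not called. Alcam, an adhesion molecule, was higher by 41.1 and Trim8, a ubiquitin ligase, by 40.7, from 60.6, 63.4 and 61.4 in MA9 and 36.5, 40.5 and 42.0 in ME to 89.9, 92.9 and 91.5. With a signal of at least 400 in every list, the differences at Nfkbia and Alcam were 10.5 and 9.09 and not called. The calls at Slc12a3, Gstp3, Fos, Dusp1, Bad, Zfat and Sumo3 were lost per base, and Tent5a, which had fallen, turned to 33.1 per base, where it was called.

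More immediate early regions fell than rose by rank, and per base more rose than fell. Their 14 genes had 15 regions, and against Control 10 fell and 2 rose in BN1, 7 fell and 0 rose in MA9, and 9 fell and 0 rose in ME, beside 30.1%, 32.2% and 28.8% of all 2407 regions that fell. The median differences were -27.5, -9.28 and -14.1 points, beside 0.616, -0.782 and 1.48 over all 1738 members. Per base, 4 rose and 0 fell in BN1, 4 rose and 2 fell in MA9, and 3 rose and 1 fell in ME. Btg2 fell in each group (by 66.2, 77.7 and 70.7), and per base the MA9 fall of 46.7 was still called while -10.3 in BN1 and -15.5 in ME were not. Ier2 stood at 99.7, 99.8 and 99.3 in Control, 34.5, 39.8 and 40.5 in BN1, 83.7, 83.3 and 81.6 in MA9, and 52.5, 29.1 and 35.4 in ME, and per base the BN1 difference was 55.0 in the other direction. Egr1, an early growth response zinc finger, fell by 63.5 in BN1 (adjusted p = 8.8e-05). Its differences of -9.28 in MA9 and -14.1 in ME were not called, and BN1 differed from the mean of MA9 and ME by -51.8 (adjusted p = 0.000206). Per base none of these was called, and the BN1 sign turned against Control (13.2) and against the MLL fusions (9.53). Junb differed otherwise: at 97.3, 97.2 and 97.9 in Control and 96.3, 97.4 and 96.4 in BN1, it fell by 21.5 in both MA9 and ME, where per base the differences were -16.4 and 35.7 and not called. BN1 was higher than MA9 and ME by 20.8, a call made under all 6 scalings (SE 0.769, adjusted p = 1.53e-08).

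Genes of the fusion partners' complexes moved in both directions. Men1, which encodes menin, the tether of MLL fusion proteins, stood at 14.8, 13.8 and 14.1 in Control, 66.0, 48.8 and 55.2 in BN1, 14.3, 12.7 and 8.85 in MA9, and 15.1, 23.8 and 27.2 in ME. It was higher in BN1 than in Control by 42.4 (adjusted p = 8.4e-06) and than in the MLL fusions by 39.7, but per base these were -3.67 and 25.4, neither called. Kmt2a itself was higher in ME by 32.0 (adjusted p = 0.00174) and in BN1 by 19.2 (adjusted p = 0.0274), with 15.5 in MA9 not called (adjusted p = 0.0696). Its region covers an end of the mouse gene, and none of these was called per base. Of all 2407 regions, 33.1% were higher and 26.3% lower in BN1 than in MA9 and ME. The list of the super elongation complex and DOT1L partners had 7 regions, of which 4 were higher and 0 lower in BN1 than in MA9 and ME. Their median was 5.77 points, and 1 was higher and 1 lower per base. Larp7 and Hexim1, which are on the list but hold the elongation factor P-TEFb inactive, were higher by 21.6 and 11.7. Ccnt1, the cyclin of P-TEFb, was higher by 15.1, so the count is not one of the complex alone. Per base, Larp7 had 6.00 and was not called, Ccnt1 10.5 and was called, and Hexim1 turned to -13.8 and was called. Arid1a, a DNA-binding SWI/SNF subunit, was lower in BN1 than in MA9 and ME by a difference of -48.1 under all 6 scalings. It stood at 11.1, 27.8 and 21.9 in BN1, 80.9, 82.8 and 80.7 in MA9, and 23.6, 72.8 and 69.2 in ME. Of the 6 SWI/SNF regions, 0 were higher and 4 lower in that comparison, and 0 and 2 per base, where the median turned from -14.4 to 8.61. Asxl2, a Polycomb-linked protein, was higher in BN1 than in Control by 40.2 under all 6 scalings, and Cxxc1, which binds CpG DNA for COMPASS, fell in all 3 groups by 23.7, 21.2 and 20.3 under all 6.

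Among the 6 general haematopoietic regions, both C/EBP genes rose by rank while Spi1, Laptm5 and Tyrobp fell against Control in each fusion group, 2 higher and 3 lower in each; per base the counts were 3 and 0 in BN1, 1 and 1 in MA9, and 1 and 2 in ME. Spi1, which encodes PU.1, stood at 97.3, 97.5 and 97.9 in Control, 26.1, 33.5 and 47.0 in BN1, 71.9, 75 and 77.5 in MA9, and 49.5, 41.8 and 56.9 in ME, yet per base it was higher in BN1 by 42.3 and called, with 2.95 in MA9 and -6.70 in ME not called. Laptm5, a lysosomal protein of blood cells, fell by 54.6 in ME under all 6 scalings. Cebpa rose by 69.6 in MA9 and 54.9 in ME as well as in BN1, but per base it was -23.8 in MA9, with the sign turned, and 8.52 in ME, neither called. Lyl1 had differences of -5.05, 15.2 and -1.26, none called. Of the lymphoid and erythroid regions, Cd3d fell in each group (by 46.4, 40.9 and 58.2), but per base the differences were -1.68, -14.7 and 4.72 and not called. The Cd79a and Arhgef1 region fell by 29.3, 71.1 and 43.8, and per base it was higher in each by 78.4, 35.8 and 85.0 and called. Nfe2 fell by 26.9 in MA9, with -5.05 in BN1 and -2.13 in ME not called, and per base all 3 turned positive (19.5, 26.9 and 38.5), of which ME was called. Gene-end peaks of B cell markers numbered 11 to 13 of 15 genes in Control and 3, 2 and at most 2 in MA9, ME and BN1, and of erythroid markers 14 to 15 of 16 in Control and at most 5 in any fusion library. Neutrophil markers had 13 of 15 in Control, 6 in MA9, 1 to 3 in ME and 0 in BN1, while stem and progenitor markers had 5 of 14 in Control, 10 to 12 in MA9, 1 in ME and 0 in BN1. Promyelocyte granule markers had 4 to 5 of 9 in Control, 9 in MA9, 5 to 6 in ME and 2 to 5 in BN1. Over all 20665 genes the numbers were 9126 to 9412 in Control, 9679 to 9863 in MA9, 5826 to 6254 in ME and 2297 to 3156 in BN1. The part of other cell types in the rank differences was not tested.

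Against Control, GC boxes and E-boxes were more frequent in promoters that rose and CCAAT in promoters that fell. Among 1408 members with a start site, those called and higher by 20 points or more had a GC box in 88.1% (BN1, n = 194), 89.8% (MA9, n = 236) and 90.7% (ME, n = 246), while those lower by as much had it in 76.9% (n = 264), 75% (n = 224) and 71.0% (n = 221), beside 84.3% of all 1408. CCAAT stood at 44.8%, 44.1% and 46.3% of the risen and at 61%, 63.4% and 58.4% of the fallen members. The E-box was at 18.6%, 17.8% and 16.7% of the risen and 9.47%, 8.48% and 8.14% of the fallen. These shares rest on the same Control libraries and carry no test. They use the rank of an area, into which peak width enters, and were not taken per base of width. In BN1 against the mean of MA9 and ME, the higher (n = 81) and lower (n = 202) members ran the other way, with a GC box in 74.1% and 88.1%, CCAAT in 60.5% and 56.4% and the E-box in 12.3% and 15.3%. Across the 1408 members, the rank difference and the CpG ratio had a Spearman rho of 0.0798 in BN1, 0.190 in MA9 and 0.188 in ME against Control, and -0.160 in BN1 against MA9 and ME, weak relations over regions.

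Some members held the same place in every library. Sp1, which encodes a GC box protein, ranked 98.5 to 98.7 in Control, 99.4 to 99.5 in BN1 and MA9 and 99.7 to 99.8 in ME. Its peak was 1289 to 1320 bp wide in Control and 1110 to 1142 bp in BN1, far above the BN1 median of 385 bp. Cic, a transcriptional repressor, ranked 98.0 to 99.4, and the regions of Fbrs, Akt1s1, Abhd11, Zfp687 and Cep57 ranged over at most 1.45 points. The highest mean ranks belonged to Pisd, Gm20783 and Crlf2. The Pisd region, chr5:32733298-32742645, was also the widest at 9348 bp, and a single peak of 9292 to 9338 bp covered it in every Control, BN1 and ME library. Mnt, a partner of MAX, and Lnpep completed the 10 highest. Other wide members were less steady: Tspoap1 (7423 bp) ranked 55.6 to 98.5 in BN1 and 99.9 to 100 in Control and MA9, and Actb, the cytoplasmic actin gene (6157 bp), ranked 99.8 in each Control library and 46.6 to 80.9 in BN1. Whether reads at Pisd, Gm20783 and Crlf2 map to a single place in the genome was not tested.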

How the data were processed

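ATAC-seq peaks of 12 libraries were analysed, as 1 narrowPeak list per library deposited by the authors. The submitters' processing notes name Bowtie2 2.5.4, deepTools 3.5.1, Picard 3.2.0 and Genrich, whose version is not given in the sources used here, and the build mm10 (GRCm38). The signal deposited by the authors for each peak was taken to be the area that Genrich sums from −log10 p over the peak. The deposited −log10 p entered an alternative; the deposited −log10 q was not used. The deposited score equalled 1000 times signal per base of width, up to a limit of 1000, and was not used.

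Peaks on chromosomes 1 to 19 were merged (1 bp or more) and matched to RefSeq gene ends with Python 3.11.15 and pandas 2.3.3. Members, gene lists and tests were chosen with earlier results of these data known. The signal of the strongest peak per region became a percentile rank, fitted with limma 3.58.1 (R 4.3.3, mean-variance trend) over 2407 regions with all groups sharing the spread. On simulated data for BN1 against Control with 200 of 2407 regions changed, 177 were called, 160 rightly and 17 wrongly. Far fewer regions changed there than were called in the real data, so the error rate at the real call numbers was not tested. Values with 1 number per library had exact permutation tests (SciPy 1.17.1). Read depth is unknown. Named genes were the 10 largest called rises and falls per comparison with groups apart, the 10 highest, the 10 widest, the 10 with the smallest and the 5 with the largest range of rank, the 5 on each side of the 1 kb limit, and listed genes. RefSeq promoter sequences (GRCm38.p6) matched 1822 of 2166 genes with a member. A few genes named by this rule are not reported here.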

Additional observations from a re-analysis of the deposited data

How the results depend on the processing

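Rank counts depended on the scale of the signal and on the peaks admitted. Per base of peak width, called members numbered 744 (BN1), 671 (MA9) and 674 (ME) against Control and 615 for BN1 against MA9 and ME. With a signal of at least 400 in every list the members fell to 814 and the calls to 497, 515, 515 and 476. With peaks covering at least 50% of a region, 184 members and 129, 128, 130 and 108 calls were left (18 higher and 111 lower, 50 and 78, 36 and 94, 25 and 83), and the share with several peaks turned from 5.83 points higher in Control than in BN1 to -9.42 (exact permutation p = 0.000649). Fewer members enter both of these by construction. Of 75 region calls named by size, 20 were kept at the signal of 400 and 2 (Nfkbia and Alcam) were lost. With 50% cover 7 were kept. At each of these settings the remaining named calls could not be checked. Members with a signal under 400 numbered 890 in BN1 replicate 2, 688 in replicate 3 and 394 in replicate 1. The smallest signal in any list was 200, so the BN1 ranks of these members span a narrow range of signal. Reported regions that turned sign per base were these: against Control, Stat6 (2.26), Myl6 (25) and Dusp1 (14.6) in BN1, Sumo3 (-12.9), Ube2g1 (-13.5), Insig1 (-5.04), Txnip (80.3), Serinc3 (31.4), Rgs2 (17.7) and Arhgef1 (35.8) in MA9, and Sumo3 (-8.25) and Yy1 (-7.66) in ME; Tent5a (33.1) in BN1 against the MLL fusions. By −log10 p, Dusp1 (3.52), Rgs2 (6.27) and Tent5a (6.85) turned. The cause was not tested beyond width entering an area. Leaving out 1 library at a time gave 1737 to 2014 members, 1014 to 1307, 946 to 1346, 985 to 1377 and 911 to 1203 calls, a width difference of MA9 over BN1 of 652 to 699 bp, a share with several peaks higher in Control than in BN1 by 4.74 to 6.88 points, summit distances within minus between groups of -9.85 to -6.73 bp and rho differences of 0.243 to 0.301. Fits on only the groups compared gave 965, 1332, 1374 and 937 calls, in place of 1137, 1085, 1108 and 991 with the spread shared by all groups. Among the comparisons with Control, BN1 thus went from the most calls to the fewest. Replicate numbers showed no strong pairing of the libraries: the same-number correlations of deviations ran from -0.037 to 0.0772 and 0 of 18 were over 0.1. Such correlations cannot tell whether libraries were prepared together. With the replicate block the calls were 1126, 1072, 1088 and 987, and it changed no named call. Log2 signal minus the library median shifted the median member by 0.12 in BN1 and 0.11 in ME. Unknown depth limits every width and call count.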

Other observations

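Of the DNA repair regions, some fell and none rose against Control under each of the 6 scalings. This is 1 small list among 36, with 6 of its 28 genes having a member, and the comparisons share the Control libraries. The counts of this and the other lists described here carry no test, and the part of choice among lists was not tested. Of 6 regions, 4 fell and 0 rose in each of BN1, MA9 and ME, with median differences of -18.8, -11.1 and -12.4 points, beside 30.1%, 32.2% and 28.8% of all 2407 regions that fell and medians of 0.616, -0.782 and 1.48 over all members; per base 2 fell and 0 rose in each. Ddb2, which recognises ultraviolet damage, stood at 40.3, 38.9 and 28.9 in Control and at 4.24, 0.956 and 4.28 in BN1, but per base the difference was -5.53 and not called, and it turned positive in MA9 (16.6) and ME (21.1), also not called. The region shared by Prkdc, the catalytic subunit of DNA-PK, and Mcm4 stood at 83.1, 81.6 and 82.6 in Control and at 39.1, 48.6 and 41.6 in BN1, and this fall of 39.3 passed under all 6 scalings. Oxidative phosphorylation subunits had 10 regions, of which 4 fell and 1 rose in BN1, 6 fell and 0 rose in MA9, and 5 fell and 1 rose in ME; per base 2 fell and 3 rose, 2 fell and 1 rose, and 1 fell and 2 rose.

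Of 23 regions of splicing factors, 1 was higher and 14 lower in BN1 than in MA9 and ME, beside 33.1% and 26.3% of all 2407 regions, with a median of -6.99 points against -0.374 over all members. Per base 1 was higher and 4 lower, with a median of 0.298. Srsf7, a serine-arginine-rich factor, passed under all 6 scalings (difference -43.3), at 39.1, 27.1 and 17.9 in BN1, 77.8, 64.7 and 67.9 in MA9, and 71.1, 72.8 and 73.8 in ME. Hnrnpa0, an RNA-binding protein, also passed under all 6, at 54.9, 15.2 and 5.28 in BN1 and 71.9 to 81.7 in MA9 and ME.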
